A study of Homo sapiens with 5 samples.

Results

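SOX transcription factors and surface markers of stem-like cells were followed in BT474, a long-established luminal breast cancer line with amplified HER2. The genes were SOX2, SOX4, SOX9, SOX11, SOX12 and SOX13, with CD24, CD44 and PROM1. They were picked by symbol, with no measured value in the rule, but with earlier results of these data known. They make up 9 of the 18512 gene symbols in the deposited table and 9 of the 13617 that the authors' test covered. Persister cells (3 libraries) were the cells left after 9 days of exposure to 2 µM lapatinib, which blocks the kinases HER2 and EGFR, with drug-containing medium renewed every 3 days. Parental cells (2 libraries) were kept over the same time without lapatinib, and both groups carried 0.01% DMSO. The submitters describe the libraries as biological replicates of polyadenylated RNA from a single cell line, prepared with a kit without strand information. The table gives a single FPKM value (fragments relative to transcript length and to library size) for each group. Values below therefore have no SD and no value per library, the spread between replicates enters only through the authors' q-value, and the depth of each library is unknown. There was no short treatment and no release from the drug, so drug action, growth arrest and survival of particular cells cannot be told apart.

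SOX proteins bind the minor groove of DNA through a domain called the HMG box, bend it, and act with partner factors to set cell identity. They are sorted into groups by the likeness of that box. Group B1 holds SOX2, a factor of pluripotent and neural stem cells. Group C holds SOX4, SOX11 and SOX12, which act in progenitors of many organs. Group D holds SOX13, and group E holds SOX9, a factor of cartilage, ducts and luminal progenitors of the breast. CD24 is a small, heavily glycosylated protein held in the membrane by a GPI anchor, CD44 is the main receptor for hyaluronan, and PROM1 (CD133) is a pentaspan glycoprotein of membrane protrusions. High CD44 with low CD24 is a widely used surface pattern of stem-like breast cancer cells.

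The DNA that encodes the HMG box shows how close 2 SOX genes of different groups are, and so how far short reads could be shared between them. The stretch of 70 codons (210 bases, starting at the same conserved residues) is printed for SOX2, which was lower in persister cells, and for SOX4, which was higher. It was taken from the GENCODE 29 transcripts and lies, in the reference build GRCh38 and on the plus strand, in the single exon of SOX2 (chr3:181712487-181712696) and of SOX4 (chr6:21594715-21594924). Capitals mark the 67 positions at which the genes differ.
SOX2: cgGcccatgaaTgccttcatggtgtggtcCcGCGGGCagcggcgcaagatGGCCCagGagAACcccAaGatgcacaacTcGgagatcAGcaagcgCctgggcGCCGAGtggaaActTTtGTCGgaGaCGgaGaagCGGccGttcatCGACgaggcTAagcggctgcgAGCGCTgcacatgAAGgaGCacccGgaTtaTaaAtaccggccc
SOX4: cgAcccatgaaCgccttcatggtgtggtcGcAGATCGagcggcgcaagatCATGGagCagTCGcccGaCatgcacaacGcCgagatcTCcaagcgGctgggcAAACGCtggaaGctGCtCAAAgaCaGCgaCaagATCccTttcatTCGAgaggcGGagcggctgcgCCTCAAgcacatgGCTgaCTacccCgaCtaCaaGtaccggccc
SOX2 and SOX4 were identical at 68.1% of these bases. The longest run shared by their whole transcripts was 17 bases and lay in this box. Pairs within a group, such as SOX4 and SOX11 or SOX2 and SOX3, were not compared. The sources used here do not give a read length.

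Upstream sequence is printed for SOX2 and SOX12, a gene that fell and one that rose. A link of these letters to the change in level was not tested. Each is the 250 bases before the start in RefSeq (GRCh38.p14), on the plus strand: chr3:181711675-181711924 for SOX2 and chr20:325302-325551 for SOX12. The windows of SOX4 (chr6:21593501-21593750) and CD44 (chr11:35138921-35139170) were searched as well. Of the 9 genes, 7 had an entry in the RefSeq promoter table, 5 of them with 1 start (SOX2, SOX4, SOX12, SOX13 and CD44), while CD24 and PROM1 had more than 1. Capitals mark every match, on either strand, to CCAAT (the CCAAT box), GGGCGG (the GC box), TATAAA (the TATA box), ATGCAAAT (the octamer bound by POU factors), GTAAACA (a forkhead core) and ACAAAG or ACAATG (SOX-type motifs).
SOX2: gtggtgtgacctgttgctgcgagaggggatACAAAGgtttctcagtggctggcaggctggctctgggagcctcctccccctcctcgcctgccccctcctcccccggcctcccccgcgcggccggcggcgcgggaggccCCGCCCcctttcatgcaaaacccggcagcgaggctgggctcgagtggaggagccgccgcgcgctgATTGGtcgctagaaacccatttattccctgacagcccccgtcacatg
SOX12: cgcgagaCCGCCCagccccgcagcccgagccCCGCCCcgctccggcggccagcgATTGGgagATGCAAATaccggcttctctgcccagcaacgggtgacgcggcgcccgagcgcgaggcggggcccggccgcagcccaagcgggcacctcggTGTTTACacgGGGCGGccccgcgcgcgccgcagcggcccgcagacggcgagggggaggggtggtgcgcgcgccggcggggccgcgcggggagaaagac
The SOX4 window held 4 CCAAT boxes, and the SOX2 and SOX12 windows 1 each. CCAAT was found in 32.0% of all 35116 RefSeq windows of this length. SOX12 had 3 GC boxes, CD44 had 2 and SOX2 had 1, against 42.6% of all windows with at least 1. The SOX12 window also held an octamer (1.63% of all windows) and a forkhead core (2.98%). ACAAAG stood once in the SOX2 window (13.7% of all windows), and neither ACAATG (9.29%) nor TATAAA (10.7%) stood in any of these 4 windows. GC content was 48.8% in the SOX4 window, 62.4% in that of CD44, 68.8% in that of SOX2 and 79.2% in that of SOX12. The median over all windows was 58%. These matches describe the letters only. The reference annotation (GENCODE 29) starts SOX4 and CD44 further upstream, and there both windows lie within the untranslated part of the first exon.

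The 9 genes did not move as a block. SOX2, SOX9, SOX11 and CD24 were lower in persister cells, by more than 2-fold as deposited, and SOX4, SOX12, CD44 and PROM1 were higher. SOX13 was lower by a small amount that turned to the opposite sign when both groups were scaled to one FPKM total. Calls rest on a q-value below 0.05 in the authors' deposited table. All 9 were called, in a table where 69.9% of tested genes were: 4 higher (30.9% of tested genes) and 5 lower (39%). With a difference of at least 1 on the log2(FPKM + 1) scale also asked for, 4 were called lower (6.01% of tested genes) and 0 higher (2.98%). That split depended on scaling: with both groups scaled to one total, a setting combined after the data were seen, 3 were lower (4.5% of tested genes), without CD24, and 3 higher (10.5%), namely SOX4 (1.00), CD44 (1.36) and PROM1 (1.79). Every difference below is that of log2(FPKM + 1), persister minus parental, a scale on which changes of weakly expressed genes come out too small. The median of the 9 was -0.19 and that of all tested genes -0.04. In RNA from whole cultures, fewer cells of a type and less RNA per cell cannot be told apart.

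**Figure D1:**
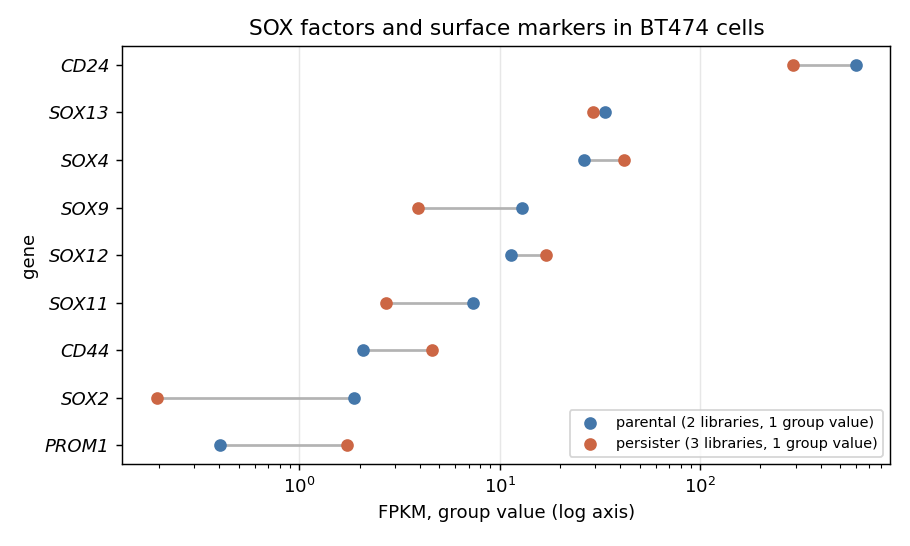
FPKM of the 9 genes in parental (blue) and persister (orange) BT474 cells, on a log axis. Each point is the authors' single value for a group, so there are no error bars. CD24 lies far above the rest in both groups, and the widest gap is that of SOX2 (1.87 and 0.196 FPKM). The small gap of SOX13 changes sign with scaling to one total.

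SOX2, the group B1 factor, had the largest ratio of the 9. It fell 9.54-fold, from 1.87 to 0.196 FPKM (difference -1.26, q listed as 0 in the authors' deposited table). Its parental level was above that of 28.8% of tested genes, its persister level above 9.60%. Because both values are low, the size of the difference depended on the pseudocount: it was -2.73 with a pseudocount of 0.1 and -1.91 with both groups scaled to one total. Of the 1718 tested genes whose mean FPKM was within 2-fold of that of SOX2, 32 (1.86%) fell as far or further. SOX2 has 1 exon and lies within the span of the noncoding gene SOX2-OT, with no shared exonic bases in the reference.

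SOX9, the group E factor, went from 12.9 to 3.93 FPKM, a 3.28-fold fall (difference -1.49, q listed as 0 in the authors' deposited table). This was the largest difference of the 9 as deposited with a pseudocount of 1, but that of SOX2 was larger with a pseudocount of 0.1 (-2.73 against -1.69) and with scaling to one total (-1.91 against -1.30). By level it was number 3 of the SOX genes in parental cells and number 4 in persister cells. As far a fall was seen in 147 of the 4519 tested genes within 2-fold of its mean (3.25%). SOX8, of the same group and named after its values were seen, was called lower at 0.571 and 0.364 FPKM (q = 6.32e-04 in the authors' deposited table). SOX10, the other member of the group and a factor of neural crest and melanocytes, was at 0.0124 and 0.0149 FPKM and was not covered by the test.

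The group C genes moved in opposite directions. SOX11, a factor of developing neurons, went from 7.36 to 2.71 FPKM, a 2.72-fold fall (difference -1.17, q listed as 0). SOX4, a factor of progenitors that is raised by TGF-beta signalling in epithelial cells, went from 26.5 to 41.6 FPKM, a 1.57-fold rise (difference 0.63, and 1.00 with scaling to one total, q listed as 0). SOX12, which is active in neural and mesenchymal progenitors, went from 11.4 to 16.9 FPKM, a 1.49-fold rise (difference 0.53, q = 1.23e-12 in the authors' deposited table). SOX4 was thus 3.60 times the level of SOX11 in parental cells and 15.4 times in persister cells, on the FPKM scale.

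Genes from the same bin of transcript length stood on both sides. With tested genes sorted by length into 5 equal bins, SOX4 and SOX11 both lay in bin 5, of the longest transcripts, where the median difference was 0.06. SOX12 and SOX9 both lay in bin 4, where it was -0.01. The bins are broad, and a part of transcript length in these differences was not tested. A rise at least as large as that of SOX4 was found in 6.51% of the 2902 tested genes within 2-fold of its mean FPKM, and one as large as that of SOX12 in 10.7% of 4510. A fall as large as that of SOX11 was found in 5.46% of 3807. In the reference, 168 of the 5852 exonic bases of SOX4 are shared with an antisense transcript and 74 of the 8719 of SOX11 with a noncoding one on the same strand. Reads over those bases cannot be told apart.

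SOX13, of group D, was the most abundant SOX transcript in parental cells at 33.5 FPKM and stood at 29.2 FPKM in persister cells. The difference was -0.19 as deposited (q = 0.00819 in the authors' deposited table), and 0.16 with both groups scaled to one FPKM total. Of the 3073 tested genes within 2-fold of its mean, 1697 (55.2%) were lower by as much or more. Its sign thus depends on the scaling.

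**Figure D2:**
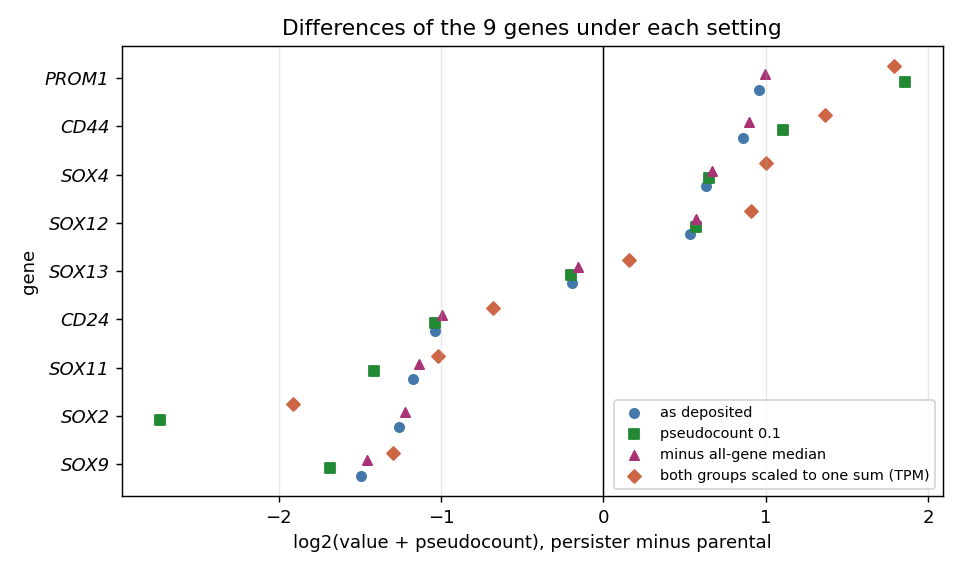
Difference of each of the 9 genes (persister minus parental, log2 of value plus pseudocount) as deposited, with a pseudocount of 0.1, relative to the median of all tested genes, and with both groups scaled to one total (TPM). SOX13 is the one gene whose points lie on both sides of 0, and the points of SOX2 (-2.73 to -1.22) and PROM1 (0.96 to 1.86) are spread widest.

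The summed level of the SOX family was shared out differently among its members in the 2 groups. Apart from the Y-linked member, 19 SOX genes stood in the table. Of these, 9 reached 1 FPKM in 1 or both groups. The summed FPKM of the 19 was 97.9 for the parental and 100.4 for the persister group, a ratio of 1.03 that became 1.31 with both groups scaled to one total. Shares of the sum do not depend on that scaling. SOX4 made up 27.1% of that sum in parental and 41.5% in persister cells, whereas SOX9 went from 13.2% to 3.92% and SOX11 from 7.52% to 2.70%. SOX13 had the highest level in parental cells, followed by SOX4, and SOX4 the highest in persister cells, followed by SOX13. Without values per library it cannot be said which neighbours in this order differ beyond their spread.

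Among the 13 SOX genes outside the set, 6 were covered by the test, with 2 called higher (30.9% of tested genes), 2 lower (39%) and 2 not called (median 4.20e-05). SOX6, which belongs to group D with SOX13 and acts with SOX5 and SOX9 in cartilage, rose from 0.182 to 3.29 FPKM, 18.1-fold (difference 1.86, q listed as 0). By level it was number 10 of the SOX genes in parental cells and number 5 in persister cells. SOX5 itself was listed at 0 in parental and at 0.00214 FPKM in persister cells. A 0 in this table can be a failed estimate, since ERBB2, the amplified gene of this line, was listed at 0 in both groups. SOX18, a group F factor of blood and lymph vessels, fell from 2.42 to 0.758 FPKM (3.19-fold, q listed as 0). The 6 endothelial markers listed were all under 1 FPKM in both groups, and 3 were tested. All 3 were called lower (39% of tested genes were). CDH5 was at 0.592 and 0.0441 FPKM, VWF at 0.487 and 0.0884 FPKM and CLDN5 at 0.0882 and 0.00610 FPKM. In contrast MCAM, also a protein of vessels but listed with the surface markers, was called higher at 0.0763 and 1.11 FPKM. The list of 6 summed to 1.19 FPKM without the drug and 0.144 FPKM with it, and TEK was listed at 0 and 0.00147 FPKM. A link of these genes to SOX18 was not tested. SOX15 was at 1.11 and 1.11 FPKM (q = 0.987). SOX3, a group B1 relative of SOX2 named after its values were seen, was called higher at 0.0143 and 0.154 FPKM (q = 4.67e-05 in the authors' deposited table).

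**Figure D3:**
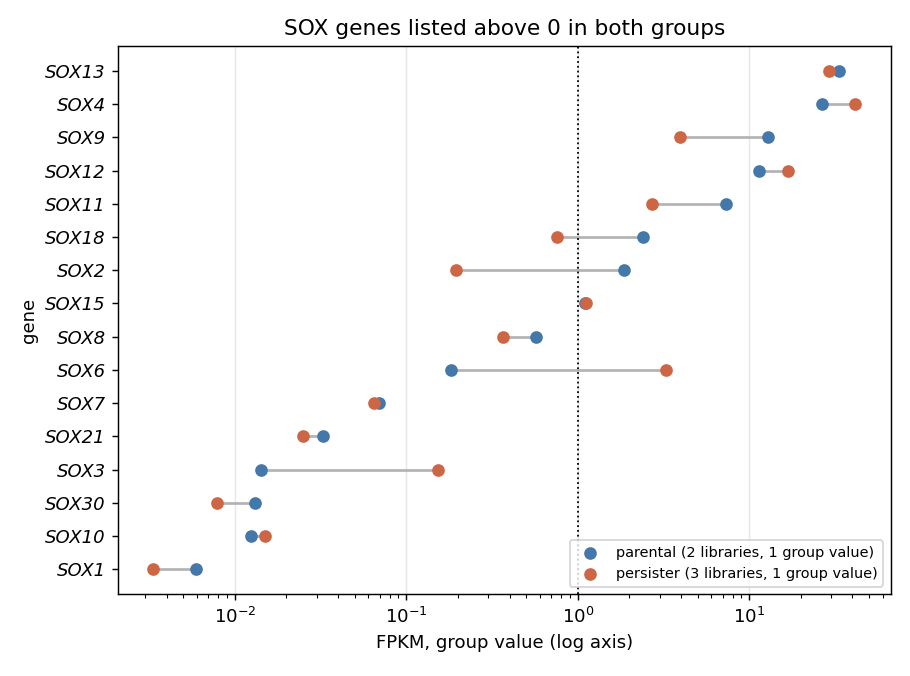
FPKM (log axis) of the 16 SOX genes listed above 0 in both groups, with parental cells in blue and persister cells in orange and 1 value per group. The dotted line marks 1 FPKM. SOX6 crosses it upward (0.182 to 3.29), and SOX2 and SOX18 cross it downward. The small gap of SOX13 changes sign with scaling to one total.

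Transcripts of the surface markers shifted toward less CD24 and more CD44 and PROM1. The data hold RNA only, so protein at the cell surface was not measured. CD24 was among the most abundant transcripts, ranking number 43 of the tested genes in parental cells at 597 FPKM and number 91 in persister cells at 291 FPKM. That is a 2.05-fold fall (difference -1.03, q listed as 0 in the authors' deposited table), and -0.68 with both groups scaled to one total. Of the 149 tested genes within 2-fold of its mean, 25 (16.8%) fell as far. In GENCODE 29, the CD24 transcript shares a run of 113 identical bases with the transcript of its processed copy CD24P4 and 52 with that of CD24P2. Reads of CD24 and of these copies may thus not be told apart. How the copies stand in hg18, the build named for the reads, was not examined.

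CD44 went from 2.08 to 4.59 FPKM, a 2.21-fold rise (difference 0.86, q listed as 0). Its parental level exceeded that of 29.9% of tested genes and its persister level 42.1%. The row pools 8 transcript identifiers, so the short standard form and the longer variant forms are not told apart. The ratio of CD24 to CD44 on the FPKM scale was 287 in parental and 63.3 in persister cells, 4.53 times lower, and this ratio does not depend on the scaling between groups. CD24 thus remained far above CD44 in both groups. With both groups scaled to one total, the CD44 difference was 1.36.

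PROM1 went from 0.405 to 1.73 FPKM, a 4.27-fold rise (difference 0.96, q listed as 0). With a pseudocount of 0.1 the difference was 1.86, and with scaling to one total 1.79. Of the 1734 tested genes within 2-fold of its mean, 84 (4.84%) rose as far. The row pools 7 transcript identifiers. In the reference, PROM1 shares 166 of 7434 exonic bases with FGFBP2, which was at 0.0490 and 0.0534 FPKM. PROM2, the other human prominin, named after its values were seen, was at 12.3 and 9.69 FPKM (difference -0.32, q = 0.0118 in the authors' deposited table), and its sign turned with scaling to one total (0.01).

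**Figure D4:**
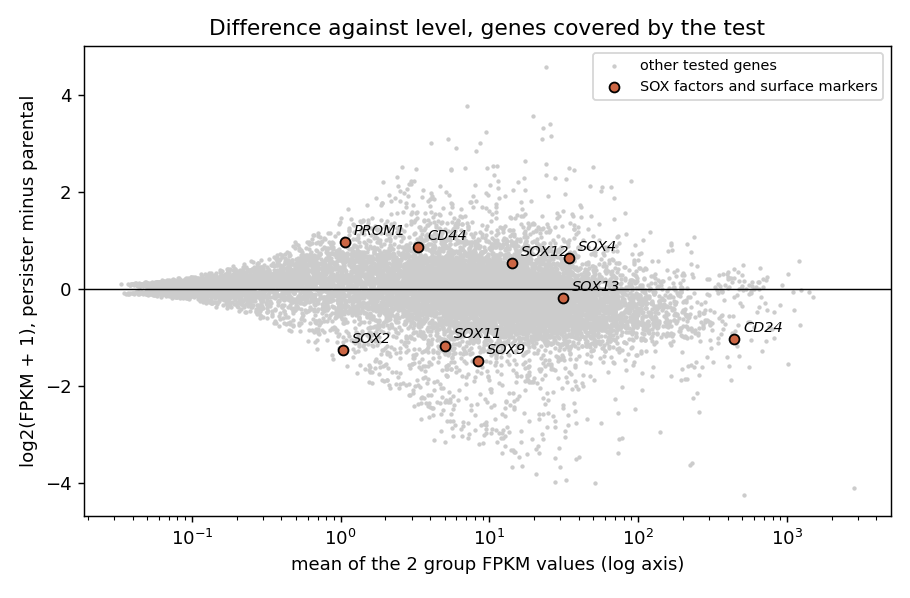
Difference (persister minus parental, log2 of FPKM + 1) against the mean FPKM of both groups (log axis) for the 13617 tested genes in grey, with the 9 genes marked. SOX2, SOX11, SOX9 and CD24 lie between -1.49 and -1.03, and SOX4, SOX12, CD44 and PROM1 between 0.53 and 0.96. SOX13 lies at -0.19, a sign that turns with scaling to one total.

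Other surface proteins used to mark stem-like cells went both ways. Of 23 listed, 15 were covered by the test, with 5 called higher and 8 lower, in a table with 30.9% of tested genes higher and 39% lower (median -0.18, and 0.01 with scaling to one total). The adhesion molecule L1CAM had the largest rise of the list, from 0.300 to 6.15 FPKM, and MCAM, a cell adhesion protein of vessels and of melanoma, rose from 0.0763 to 1.11 FPKM. The tetraspanin TSPAN8 fell from 6.44 to 0.447 FPKM and the chemokine receptor CXCR4 from 11.7 to 2.25 FPKM. Each had a q-value listed as 0. Of the 23, 12 were under 1 FPKM in both groups, 1 of them listed at 0 in both.

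Of 16 factors that act beside SOX2 in pluripotent cells, 14 were under 1 FPKM in both groups, 3 of these listed at 0 in both. The test covered 6 of the 16, with 2 called higher and 1 lower (median 0.02), beside 30.9% and 39% of tested genes. KLF4, which also acts in epithelial differentiation, rose from 12.7 to 19.1 FPKM (q = 3.91e-12) and MYC, a driver of growth, from 49.5 to 56.3 FPKM (q = 0.0171). LEFTY1, an inhibitor of NODAL signalling, fell from 0.272 to 0.0788 FPKM (q = 3.79e-05).

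Genes known as targets of the SOX factors in other tissues stood on both sides. Of 12 cartilage genes bound by SOX9, 6 were tested, with 2 called higher and 1 lower (median 0.08), beside 30.9% and 39% of tested genes. In both groups 10 of the 12 were under 1 FPKM. The gene of highest level, MIA, named after its values were seen, was at 91.2 and 99.3 FPKM. It was not called (q = 0.163 in the authors' deposited table). COL2A1, the main cartilage collagen, was called higher at 0.441 and 0.762 FPKM and COL11A2 at 0.354 and 0.704 FPKM, while the collagen IX gene COL9A2 fell from 4.02 to 2.82 FPKM. Of 6 genes tied to SOX4 or SOX11, 5 were tested, with 3 called lower and 1 higher, beside 39% and 30.9% of tested genes. Their median was -0.68, and -0.35 with scaling to one total. EZH2, the H3K27 methyltransferase, fell from 27.9 to 8.41 FPKM, the YAP partner TEAD2 from 7.85 to 3.33 FPKM and the neuronal tubulin TUBB3 from 25.2 to 15.3 FPKM, and MAP2, a microtubule protein of neurons, rose from 0.261 to 0.898 FPKM.

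Of 13 tested factors of mammary progenitors and lineages, 8 were called higher and 4 lower, beside 30.9% and 39% of tested genes. Their median was 0.26, against -0.04 over all tested genes, and 0.64 against 0.24 with scaling to one total. TWIST1, a driver of mesenchymal traits, rose from 2.60 to 19.9 FPKM, and GATA3, the luminal master factor, from 14.1 to 43.3 FPKM. ID4, an inhibitor of basic helix-loop-helix factors, rose from 1.03 to 4.93 FPKM and ALDH1A1, an aldehyde dehydrogenase used to mark stem-like cells, from 15.1 to 35.1 FPKM. The 4 called lower include SNAI1, at 1.44 and 0.390 FPKM, and RUNX1, at 12.6 and 7.54 FPKM. Both were named after their values were seen. BMI1 shares its table row with a neighbouring gene and was not counted.

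Of 15 tested genes for hyaluronan metabolism and CD44 partners, 5 were called higher and 7 lower (median -0.13), beside 30.9% and 39% of tested genes. With scaling to one total, 6 were higher and 6 lower (median -0.02). HMMR, a second hyaluronan receptor that also acts on the mitotic spindle, fell from 13.6 to 0.729 FPKM, radixin (RDX), which ties CD44 to actin, from 6.76 to 2.34 FPKM and the hyaluronidase HYAL2 from 10.7 to 5.00 FPKM. CEMIP, which breaks down hyaluronan, rose from 0.323 to 3.41 FPKM. Of 9 regulators of CD44 splicing, 6 were called lower and 1 higher (median -0.50), beside 39% and 30.9% of tested genes. With scaling to one total, which turned the sign of ESRP2, 5 were lower and 2 higher (median -0.15). The members include TRA2B at 46.4 and 20.0 FPKM, SRSF1 at 84.6 and 51.3 FPKM and SRSF3 at 84.0 and 54.0 FPKM, while RBFOX2 rose from 8.84 to 20.4 FPKM. Of 26 tested genes for GPI anchors and CD24 ligands, 13 were called lower and 4 higher, beside 39% and 30.9% of tested genes. With scaling to one total, 10 of them were lower and 7 higher. Their median was -0.25 as deposited and 0.10 with scaling to one total, so the direction of this list depends on scaling. PIGU fell from 94.4 to 45.0 FPKM, PIGW from 30.6 to 15.6 FPKM, PIGX from 13.9 to 7.34 FPKM and DPM2 from 35.5 to 21.1 FPKM, each an enzyme or subunit of anchor assembly.

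**Figure D5:**
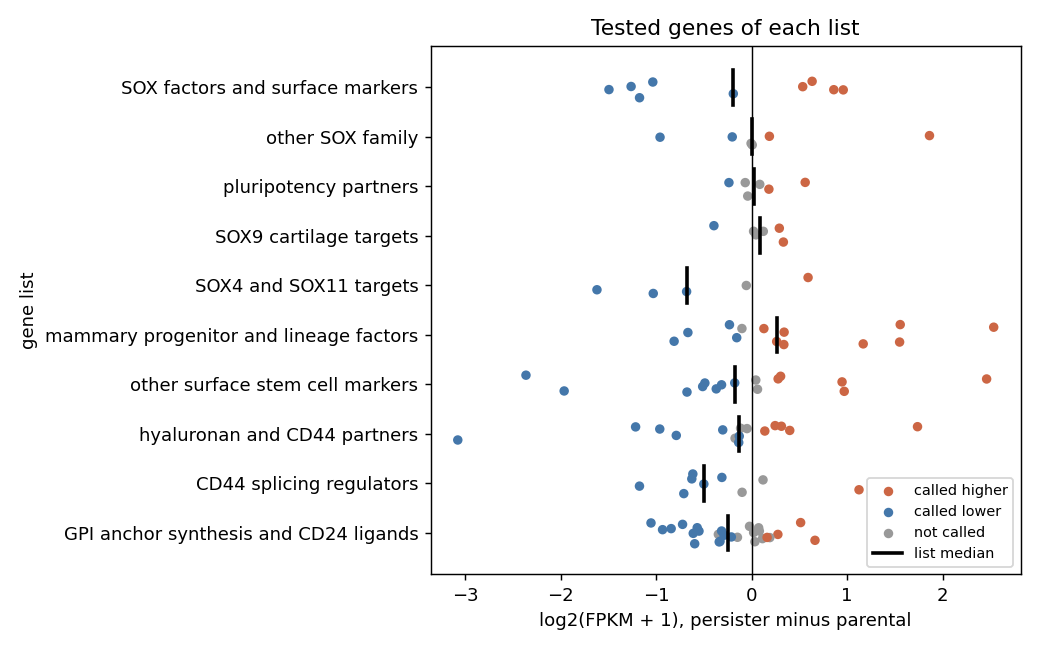
Difference (persister minus parental, log2 of FPKM + 1) of every tested gene in each list, coloured by call (orange higher, blue lower, grey not called), with the list median as a black bar. The SOX factors and surface markers lie in a high and a low cluster with SOX13, at the median of -0.19, between them. It turns to 0.16 with scaling to one total. The medians of the GPI anchor list and of the other surface markers also change sign with that scaling.

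Luminal epithelial transcripts were present in both groups. KRT8 was at 730 and 565 FPKM, KRT18 at 483 and 328, KRT19 at 841 and 623, CDH1 at 143 and 90.0, SPDEF at 161 and 65.4, ESR1 at 12.4 and 18.2, and FOXA1 at 107 and 92.5 FPKM in parental and persister cells. Of these 7 luminal markers, 6 were called lower (39% of tested genes) and 1 higher (30.9%), FOXA1 with a sign that turned with scaling to one total. Their median was -0.43 as deposited and -0.08 with that scaling. Basal markers summed to 0.516 and 0.675 FPKM, with MYLK at 0.411 and 0.433 and KRT17 at 0.0324 and 0.109, and immune markers to 2.50 and 2.00 FPKM, of which CD68 gave 2.30 and 1.97 and CD14 0.143 and 0.00344, with CD3D listed at 0 in both groups. Fibroblast markers summed to 13.5 and 8.75 FPKM, of which COL1A1 gave 13.4 and 8.73 and COL3A1 0.0164 and 0.00766.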

How the data were processed

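Build hg18, Cuffdiff 2.0.2, Cufflinks, TopHat2 2.0.6 and CASAVA 1.8 are named, with no settings, in the submitters' processing notes. Per the file headers, the authors gave 1 FPKM value per gene for each group, with its libraries pooled. The q-value is an adjusted p deposited by the authors, with no adjustment stated; it was listed as 0 in 2712 of 18803 rows, 7 of the 9 genes among them. The fold change the authors deposited was not used.

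The table holds no counts, so no count test, interval or SD was computed. Genes with q below 1 were taken as tested and those with q below 0.05 as called. Differences are log2(FPKM + 1). For the 269 symbols with several rows, the row of highest mean FPKM was kept. Of 26 rows with a spreadsheet date for a symbol, 25 were named through their RefSeq transcript. Transcript length was known for 98.1% of tested genes. Lengths, exon overlaps and shared runs were taken from GENCODE 29 (GRCh38), not from the build hg18 named for the reads.

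The 9 genes and the 14 lists beside them (184 entries, 2 not matched) were chosen with earlier results of these data known. Named genes were the 9, other SOX genes at 1 FPKM or more, 7 luminal markers (1 other is not reported here), and per list at most 4 called genes, taken by size of difference, or the 2 of highest mean FPKM where under 2 were called. ESRP2, RUNX1, SNAI1, SOX3, SOX5, SOX8, SOX10, PROM2, MIA, TEK, CD3D, ERBB2 and FGFBP2 were named outside this rule, after their values were seen. Python 3.11.15, pandas 2.3.3 and numpy 2.4.6 were used.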

Additional observations from a re-analysis of the deposited data

How the results depend on the processing

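No paired analysis was possible because the table holds 1 value per group, and leaving out a replicate could not be run for the same reason. Over 36 recomputed differences of the 9 genes (pseudocount of 0.1, relative to the all-gene median, scaling to one total, summed duplicate rows), 35 kept their sign. The exception was SOX13, at 0.16 with scaling to one total, and with it the median of the 9, also 0.16. That median was -0.20 with a pseudocount of 0.1 and -0.15 relative to the all-gene median. A changed pseudocount cannot turn a sign, and none of the 9 genes has a duplicate row to sum. The all-gene median of -0.04 was smaller in size than each of the 9 differences. Only scaling to one total could therefore turn a sign, so the 35 kept signs are a weak check. Scaling to one total moved the median of all tested genes from -0.04 to 0.24, and the share of called genes that were higher from 44.2% to 54.8%, since FPKM summed to 332885 over the parental and 259812 over the persister column.

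With a difference of at least 1 also required, 0 of the 9 were called higher as deposited, and 3 higher and 3 lower with scaling to one total, a combination chosen after seeing the data. Among all tested genes it left 10.5% higher and 4.5% lower with that scaling, and 2.98% higher and 6.01% lower as deposited. The same requirement left, as higher and lower, 1 and 0 other SOX genes, 0 and 0 pluripotency partners, 0 and 0 cartilage genes, 4 and 0 mammary factors, 1 and 2 hyaluronan and CD44 partners, 0 and 1 GPI anchor genes, and 1 and 2 other surface markers. It left 0 higher and 2 lower genes tied to SOX4 or SOX11, and 1 higher and 1 lower CD44 splicing regulator. With 1 FPKM required in 1 or both groups, 1 other SOX gene was higher and 1 lower. As higher and lower, that left 2 and 0 pluripotency partners, 0 and 1 cartilage genes, and 0 and 3 genes tied to SOX4 or SOX11. It left 7 and 2 mammary factors and 3 and 7 other surface markers. With a q-value threshold of 0.01, 1 pluripotency partner was higher and 1 lower. These requirements leave fewer genes that can be called. The shares of all tested genes called under the FPKM and the stricter q-value requirements were not computed. Without depth or values per library, small differences such as that of SOX13 cannot be set against counting error.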
